A study of Mus musculus with 6 samples.

Results

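The enzymes that make and remodel glycerophospholipids were followed in oocytes of aged mice. Glycerophospholipids are the main lipids of cell membranes. They are built by adding fatty acyl groups to glycerol-3-phosphate, which gives lysophosphatidate and then phosphatidate, the common precursor. Phosphatidate is either dephosphorylated to diacylglycerol, which receives choline or ethanolamine from CDP-choline or CDP-ethanolamine, or activated to CDP-diacylglycerol for phosphatidylinositol and cardiolipin. Finished lipids are remodelled by phospholipases A2, which remove the acyl group at the sn-2 position, and by lysophospholipid acyltransferases, which put a new one in its place. A growing oocyte enlarges its plasma membrane, endoplasmic reticulum and mitochondrial pool before it is ovulated.

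The members were the protein-coding genes whose symbols name these enzyme families, 61 of the 25631 genes listed and of the 17773 listed as protein coding. The deposited pathway annotation placed 59 of the 61 in glycerophospholipid metabolism, a pathway of 90 listed genes. The members fell into 9 enzyme steps. The study compared oocytes of 14-month-old mice in 2 groups of 3 libraries each. In the aminophylline group the mice drank water with 4.0 mM aminophylline, a theophylline salt that inhibits phosphodiesterases, for 1 week and plain water for the next 3 weeks. In the control group they drank plain water only. Mice of both groups then received equine chorionic gonadotropin, which stimulates follicle growth, and the oocytes were released by puncturing large antral follicles. The numbers of mice and oocytes behind each library are not given in the sources used here, and p-values measure only the spread between these libraries.

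Levels are FPKM, fragments scaled to transcript length and to the library's mapped reads, which are given per length and compare between genes as far as the lengths used hold. Library totals ranged from 14112341 reads in control 2 to 33641283 reads in control 1, and 3 reads corresponded to 0.0892 to 0.213 RPM (reads scaled to library size). All 12 oocyte markers examined, Gdf9, Bmp15 and Zp1 to Zp3 among them, reached an FPKM of at least 1, and their summed FPKM was 20369 to 28013. Of 12 granulosa and cumulus markers 7 stayed below FPKM 1 in every library, and Amh was listed at 0 in 5 of the 6. The summed FPKM of the 12 was nevertheless higher in every control library, at 280, 216 and 244, than in the aminophylline libraries, at 166, 167 and 181. Most of it was the single gene Serpine2, at 254, 198 and 220 against 145, 147 and 155. Of the 12 markers 5 were highest in aminophylline 3 and 2 in aminophylline 1, while 3 were highest in control 1 and 2 in control 2. Control 1 stood apart in macrophage markers. It held the highest value of 9 of the 11 listed, with Lyz2 at 66.4 against at most 0.573 elsewhere and C1qc at 14.8 against 0. The summed FPKM was 188 against 83.5 to 104 in the other 5 libraries. Most of the sum in those 5 was C1qb, which went the other way, at 72.3 in control 1 against 79.2 to 99.8. In bulk RNA, fewer cells of a type and less RNA per cell cannot be told apart. Whether RNA of these other cells takes part in the member values was not tested, and results that rest on control 1 are given with and without it.

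The 4 promoters shown here compare members of both sides of the cycle. Agpat2 makes phosphatidate from lysophosphatidate, Lpcat1 reacylates lysophosphatidylcholine, Pla2g15 is a lysosomal phospholipase A2 and Pla2g4d a cytosolic one. They are the 2 phospholipases A2 and the 2 other members with the highest mean levels among those whose window adjoins the 5′ end of the gene and lies in no other gene. Each sequence is the 250 bases before the start in RefSeq, build GRCm38.p6, read 5′ to 3′ on the gene's strand, with every CG dinucleotide in capitals. The windows are chr2:26604418-26604667 on the minus strand for Agpat2, chr13:73466981-73467230 on the plus strand for Lpcat1, chr8:106150104-106150353 on the plus strand for Pla2g15 and chr2:120289070-120289319 on the minus strand for Pla2g4d.
Agpat2: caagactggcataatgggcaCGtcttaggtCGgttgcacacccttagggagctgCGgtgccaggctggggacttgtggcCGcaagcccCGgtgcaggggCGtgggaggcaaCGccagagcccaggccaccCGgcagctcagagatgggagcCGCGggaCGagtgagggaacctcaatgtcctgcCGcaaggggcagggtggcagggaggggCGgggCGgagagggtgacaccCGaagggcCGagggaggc
Lpcat1: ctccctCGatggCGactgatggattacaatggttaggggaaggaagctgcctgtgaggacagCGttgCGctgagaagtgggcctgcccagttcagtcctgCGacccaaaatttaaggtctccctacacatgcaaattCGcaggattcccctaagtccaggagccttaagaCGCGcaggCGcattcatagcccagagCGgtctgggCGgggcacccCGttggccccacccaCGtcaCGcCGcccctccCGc
Pla2g15: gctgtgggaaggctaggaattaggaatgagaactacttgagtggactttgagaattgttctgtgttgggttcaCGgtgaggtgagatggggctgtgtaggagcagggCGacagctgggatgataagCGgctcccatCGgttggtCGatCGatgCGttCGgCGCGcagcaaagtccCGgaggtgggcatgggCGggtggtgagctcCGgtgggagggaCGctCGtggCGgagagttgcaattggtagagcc
Pla2g4d: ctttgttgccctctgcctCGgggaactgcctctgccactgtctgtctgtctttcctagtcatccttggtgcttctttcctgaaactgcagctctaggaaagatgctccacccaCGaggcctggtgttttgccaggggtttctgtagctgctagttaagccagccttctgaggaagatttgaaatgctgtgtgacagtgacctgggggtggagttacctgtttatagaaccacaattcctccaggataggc

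The Agpat2, Lpcat1 and Pla2g15 windows each held 16 CG dinucleotides, a number that 24% of the windows of all 23726 genes counted the same way reach. The Pla2g4d window held 2. A window was counted where its start site lay at most 250 bases inside the outermost annotated 5′ end of the gene, which held for 39 members, and 16 others, Pla2g4c and Pla2g12a among them, were left out because their listed windows lie farther inside. Of the 8 phospholipases A2 counted 2 held 10 or more CG, with a median of 2.5 and a range of 1 to 16. Of the other 31 members 25 held 10 or more, with a median of 19 and a range of 1 to 38. Over all genes the median was 5 and 36.2% held 10 or more. With windows that adjoin the 5′ end only, 1 of 6 phospholipases A2 and 11 of 15 other members held 10 or more, beside 30.5% of 19826 genes. The median was 19.5 in 20 members tested for expression and 11 in 19 not tested. Among the tested members 2 of 4 phospholipases A2 held 10 or more, with a median of 7. Of the other tested members 15 of 16 did, with a median of 21.5. Pcyt1b, with 1 CG, was the tested exception outside the phospholipases A2. The choice of windows was made after the counts were seen, only this dinucleotide was counted, and 1 start was read per gene.

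Oocytes carried transcripts of every step. Of the 61 members, 10 had a mean FPKM of at least 10 over the 6 libraries, 19 lay between 1 and 10, 16 between 0.1 and 1, and 16 below 0.1. Agpat2 and Pla2g4c led with mean levels of 50.8 and 50.5 FPKM, above 91.5% of the protein-coding genes each. Lpcat1 followed at 35.4, Pla2g12a at 29.3, Cds1 at 24.0, Cept1 at 18.4, Lpcat2 at 17.7 and Pemt at 12.5 FPKM. Members entered the test where 3 or more of the 6 libraries reached FPKM 1, and 32 met this. The other 29 were too low, 26 of them with an FPKM below 1 in every library.

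**Figure D1:**
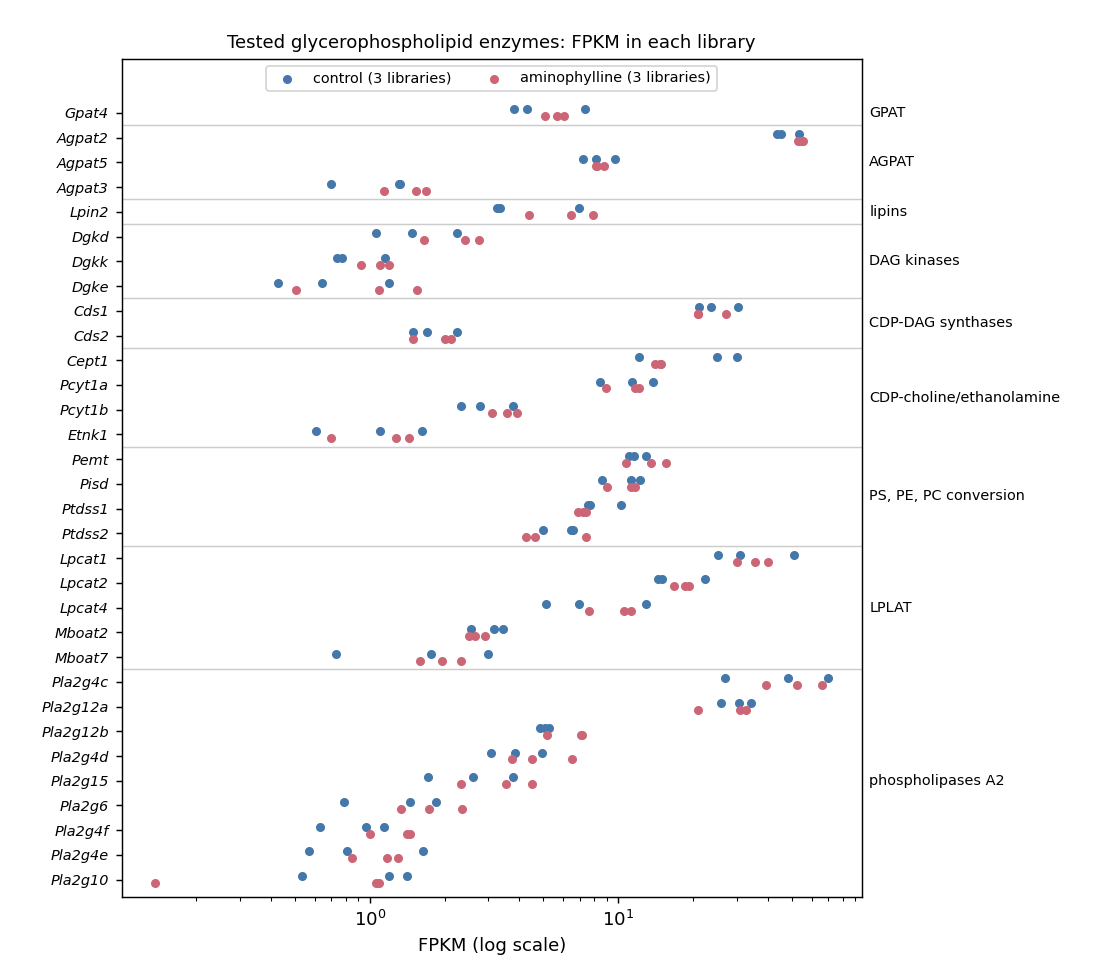
FPKM, on a log axis, of the 32 tested members in each of the 3 control (blue) and 3 aminophylline (red) libraries, grouped by enzyme step. Agpat2, Pla2g4c, Lpcat1 and Pla2g12a lie highest, and the colours overlap in every member except Ptdss1.

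In 4 of the 9 steps 1 member carried most of the level in these oocytes. The plot of levels by step shows the gap below each leading gene, and the share of a step's summed FPKM that its leading member carried was taken in each library. Cds1 carried 91.3% to 94.7% of the CDP-diacylglycerol synthase level over the 6 libraries, Lpin2 84.7% to 93.1% of the lipins, Agpat2 81.2% to 84.2% of the lysophosphatidate acyltransferases and Gpat4 81% to 89.6% of the glycerol-3-phosphate acyltransferases. In the remodelling steps the first place was less exclusive. Pla2g4c carried 34.8% to 58.5% of the phospholipases A2 and Lpcat1 42.6% to 59.8% of the lysophospholipid acyltransferases. Dgkd led the diacylglycerol kinases with 31.5% to 42.9%, and Pemt led the head-group enzymes with 27.6% to 40.7%. The first place changed hands in 2 of these steps, since Pla2g12a carried 44.1% against 34.8% for Pla2g4c in control 2, and Pisd carried 30.3% against 27.6% for Pemt in control 3.

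**Figure D2:**
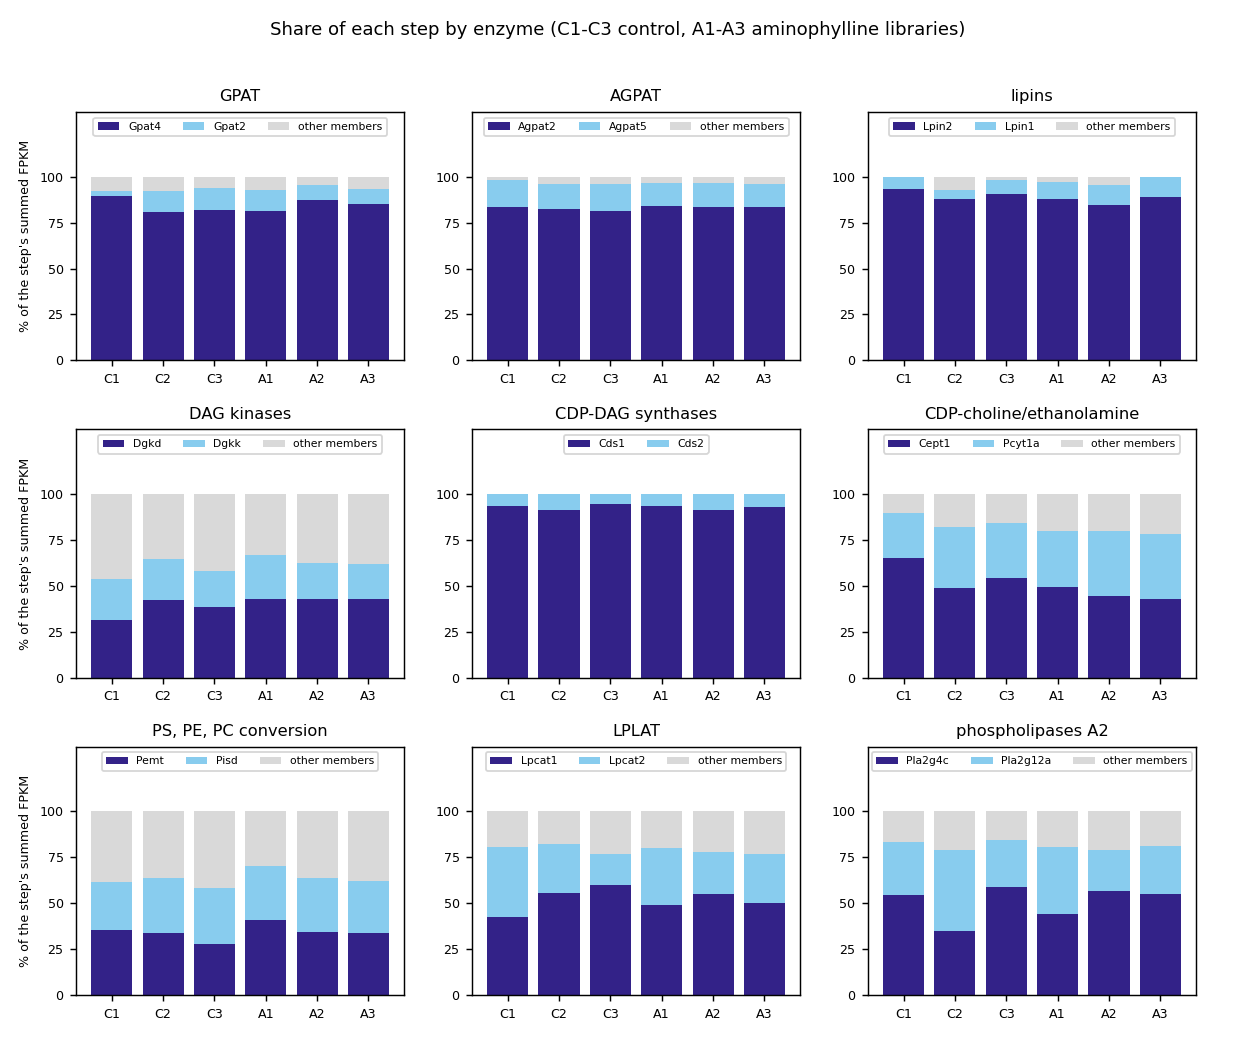
Share of each step's summed FPKM, in percent, carried by its leading member, its second member and the remaining members, for each of the 3 control and 3 aminophylline libraries. Cds1, Agpat2, Lpin2 and Gpat4 take at least 81% of their steps in every library, and the other 5 steps are divided among more members.

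These shares depend on the gene length used. The length recovered from the deposited values exceeded the longest GENCODE transcript more than 2-fold for 5 of the 32 tested members, Cept1, Dgkd, Lpin2, Mboat2 and Pla2g4c. With the longest transcript as the length, an alternative added after the data were seen, the same member led all 9 steps, and the mean share of Pla2g4c moved from 50.4% to 72.9% and that of Cept1 from 50.7% to 77.7%. The mean level of Pla2g4c was then 114 FPKM and that of Cept1 72.5 FPKM, above Agpat2 at 53.7 FPKM, while Pla2g12a was at 17 and Agpat5 at 2.97 FPKM, below their deposited means of 29.3 and 8.37. The order of levels between members thus holds for the deposited lengths only. The length enters the fold changes through the 1 added before taking logs, which weighs most on low genes. With 0.1 added instead, the log2 fold change of Dgkd was 0.52 in place of 0.35 and that of Lpin2 0.51 in place of 0.43.

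The comparison of the aminophylline group with the control group asks whether treatment of aged mice altered these transcripts in their oocytes. No member passed the test in either direction. At an unadjusted p under 0.05 in limma, 0 of the 32 tested members were higher, beside 4.41% of all 10340 tested genes, and 0 were lower, beside 2.84%. After Benjamini-Hochberg adjustment over all tested genes 0 members and 0 genes passed, with a smallest adjusted p of 0.721 among the members and 0.455 among all genes. With the replicate number as a block 47 genes passed adjustment, still with 0 members. An unadjusted p under 0.05 was reached by 750 genes (7.25%), 456 higher and 294 lower. That split became 281 higher and 292 lower when libraries were rescaled to a common sum, and 347 and 528 after quantile normalization.

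The members' log2 fold changes, aminophylline over control on the log2(FPKM + 1) scale, had a median of 0.14, against 0.10 over all tested genes. They were above 0 for 24 of the 32 members (75%), as they were for 64.8% of all tested genes. Under quantile normalization the 2 figures were 17 of 32 and 51.4%, and the median of the members was 0.04. The median also moved when single libraries were left out, to 0.06 without control 1, 0.05 without control 2, 0.25 without control 3 and 0.07 without aminophylline 3. Among the 32 tested members the groups did not overlap for 0 in the higher direction, beside 7.51% of all tested genes, and for 1 in the lower direction, Ptdss1, beside 4.96%.

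The 95% intervals say how large a difference these 6 libraries leave room for. The median half-width was 0.50 on the log2 scale, from 0.35 to 0.68. On the log2(FPKM + 1) scale the intervals of 30 of the 32 members lay within a 2-fold difference either way. On it 20 reached a 1.5-fold difference in at least 1 direction. A 1.5-fold difference on this scale thus stayed within the interval of most members with 3 libraries per group. For low members the added 1 narrows the interval, so their FPKM itself may differ by more than these limits.

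**Figure D3:**
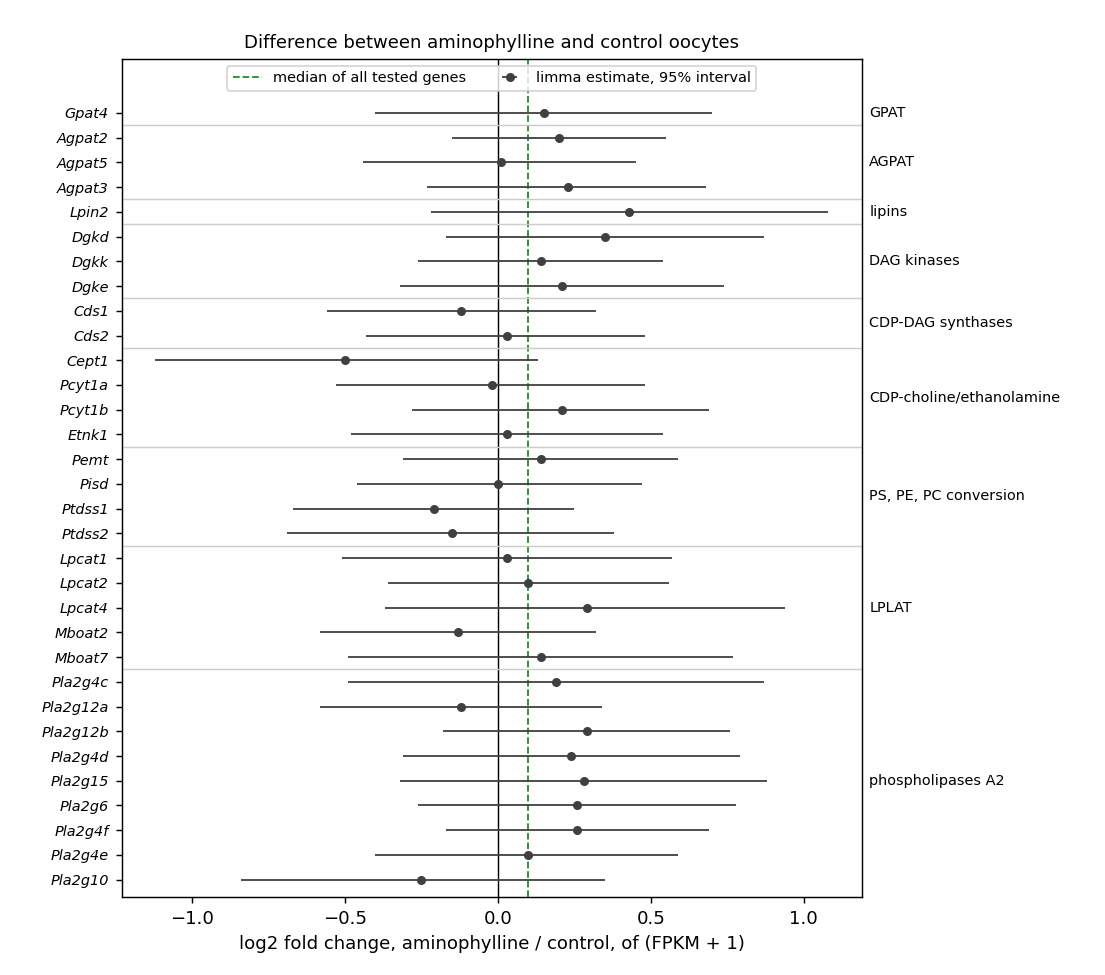
Log2 fold change (aminophylline over control, log2(FPKM + 1) scale) of the 32 tested members with 95% limma intervals, grouped by enzyme step. The dashed line marks the median of all tested genes, 0.10, and every interval includes 0.

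The first acyl group is added by glycerol-3-phosphate acyltransferases, of which 1 of 4 listed was tested. Gpat4, the endoplasmic reticulum form, measured 3.79, 4.29 and 7.34 FPKM in controls and 5.08, 5.68 and 6.07 after aminophylline. The treated values lay inside the control range, with a log2 fold change of 0.15 ± 0.25 (SE) and an adjusted p of 0.884. Gpat2, a mitochondrial form known from testis, was below the testing limit, at 0.108, 0.585 and 1.05 FPKM in controls and 0.702, 0.56 and 0.605 in treated oocytes.

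The second acyl group is added by the AGPAT enzymes, 3 of 5 tested. Agpat2 had the highest mean level of all members at the deposited lengths. It measured 45.2, 43.4 and 53.2 FPKM in controls and 55.6, 54.5 and 52.8 after aminophylline. The means were 47.3 ± 5.22 and 54.3 ± 1.43 (SD, n = 3 each), and control 3 lay above aminophylline 3, so the groups overlapped. Its log2 fold change was 0.20 ± 0.16 (SE), with an interval of -0.15 to 0.55 and an adjusted p of 0.76. Agpat5, a form found in mitochondria, measured 8.17, 7.24 and 9.72 against 8.19, 8.76 and 8.14 FPKM. The 2 groups were the closest of the step, with a log2 fold change of 0.01 ± 0.202 (SE). Agpat3 had a log2 fold change of 0.23, at 0.699 to 1.32 FPKM in controls and 1.14 to 1.69 after treatment, and Agpat1 was below the limit for testing.

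Phosphatidate is turned into diacylglycerol by the lipins and back by diacylglycerol kinases, and these steps had the highest ratios of summed FPKM. The 3 lipins together measured 3.57, 3.72 and 7.67 FPKM in controls and 4.99, 7.66 and 8.9 in treated oocytes, a ratio of means of 1.44. The 10 diacylglycerol kinases measured 3.36, 3.49 and 5.83 against 3.86, 5.65 and 6.4, a ratio of 1.26. In both steps control 3 lay within the treated range and controls 1 and 2 lay below it. The ratio of the lipins was 1.97 without control 3 and 1.26 to 1.28 without control 1, control 2 or aminophylline 3, and that of the kinases was 1.55 and 1.13 to 1.15 without the same libraries.

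Lpin2 was the main lipin, at 3.33, 3.26 and 6.95 FPKM in controls and 4.38, 6.48 and 7.93 after aminophylline. Its log2 fold change was 0.43 ± 0.297 (SE), with an interval of -0.22 to 1.08 and an adjusted p of 0.728 in limma. With the replicate number as a block its unadjusted p in limma was 0.0546, in a fit where 14.2% of all genes lay under 0.05. Leaving out control 3 gave 0.73 with an unadjusted p of 0.0167 and an adjusted p of 0.298, and leaving out control 1, control 2 or aminophylline 3 gave 0.29, 0.28 and 0.27 with unadjusted p of 0.415, 0.41 and 0.434. Lpin1, too low to test, measured 0.23, 0.199 and 0.571 FPKM in controls and 0.459, 0.831 and 0.944 after treatment. Its share of the lipin level was 5.35% to 7.45% in controls and 9.21% to 10.8% in treated libraries, ranges that do not overlap. Among the leading and next members of the 9 steps the shares of 2 others were apart as well. They were Agpat5 at 13.7% to 15.1% against 12.4% to 13.4% and Dgkd at 31.5% to 42.5% against 42.7% to 42.9%. In FPKM the groups did not overlap for 12.5% of all tested genes, and no such figure was taken for shares. Shares within a step depend on each other, and no difference in shares was tested.

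Dgkd, the delta kinase, measured 1.06, 1.48 and 2.24 FPKM in controls and 1.65, 2.42 and 2.75 in the aminophylline group. The groups overlapped, with means of 1.59 ± 0.597 and 2.27 ± 0.565 (SD, n = 3 each) and a log2 fold change of 0.35 ± 0.236 (SE), adjusted p 0.728. Without control 3 it was 0.52, with an unadjusted p of 0.0475 and an adjusted p of 0.346, and without control 1 it was 0.19 with an unadjusted p of 0.463. Under the replicate block the unadjusted p of Dgkd was 0.0934. Dgkk measured 0.735, 0.772 and 1.15 against 0.926, 1.1 and 1.2 FPKM, a log2 fold change of 0.14 with overlapping groups. Dgke, the only other kinase tested, had a log2 fold change of 0.21, and the remaining 7 kinases were too low to test.

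CDP-diacylglycerol synthases open the branch to phosphatidylinositol and cardiolipin. Cds1 measured 21.2, 23.7 and 30.4 FPKM in controls and 21, 20.9 and 27.1 after treatment. Means were 25.1 ± 4.75 and 23 ± 3.55 (SD, n = 3 each), a log2 fold change of -0.12 ± 0.199 (SE) with an adjusted p of 0.884. Cds2, its paralog, was more than 10-fold lower, at 1.5, 2.25 and 1.7 against 1.49, 2 and 2.12 FPKM, with a log2 fold change of 0.03.

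The CDP-choline and CDP-ethanolamine branches gave the lowest ratio of summed FPKM, 0.821. Cept1, their most abundant member and the choline/ethanolamine phosphotransferase that completes both phosphatidylcholine and phosphatidylethanolamine, measured 30, 12.1 and 24.9 FPKM in controls and 14.1, 14.8 and 14.7 after aminophylline. Controls 1 and 3 lay above all treated libraries and control 2, the library with the fewest reads, lay below them. The control SD was 9.19 around a mean of 22.3, and the treated SD was 0.339 around 14.5 (n = 3 each). The log2 fold change was -0.50 ± 0.284 (SE), with an interval of -1.12 to 0.13, an unadjusted p of 0.107 and an adjusted p of 0.721 in limma.

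The Cept1 value depended on the libraries and the model. Without control 2 it was -0.87, with an unadjusted p of 0.00079 and an adjusted p of 0.0966. Without control 1, the library with macrophage markers, it was -0.25 with a p of 0.407. With the replicate number as a block the unadjusted p was 0.0311 and the adjusted p 0.296, with median centring the log2 fold change was -0.58 and the p 0.0468, and with library weights they were -0.65 and 0.0147. Its adjusted p stayed above 0.05 throughout, from 0.0966 to 0.999 over the alternatives run.

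Cept1 lies on the minus strand at chr3:106502260-106547802 (RefSeq, GRCm38.p6), and its start overlaps the start of Dram2 by 5 bases, head to head. Dram2, a lysosomal membrane protein gene and no member, measured 50.2, 28.6 and 41.3 FPKM in controls and 30, 26.2 and 24.9 after treatment, with a log2 fold change of -0.52, an unadjusted p of 0.0353 and an adjusted p of 0.682 in limma. Control 2 was the lowest control in both genes. Whether the counting used strand is not given in the sources used here, so reads on these 5 shared bases cannot be told apart. At its other end Cept1 overlaps Dennd2d, a gene without a listed value, by 771 bases. Over its whole length Cept1 had 1896 reads in control 2 to 11164 in control 1.

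**Figure D4:**
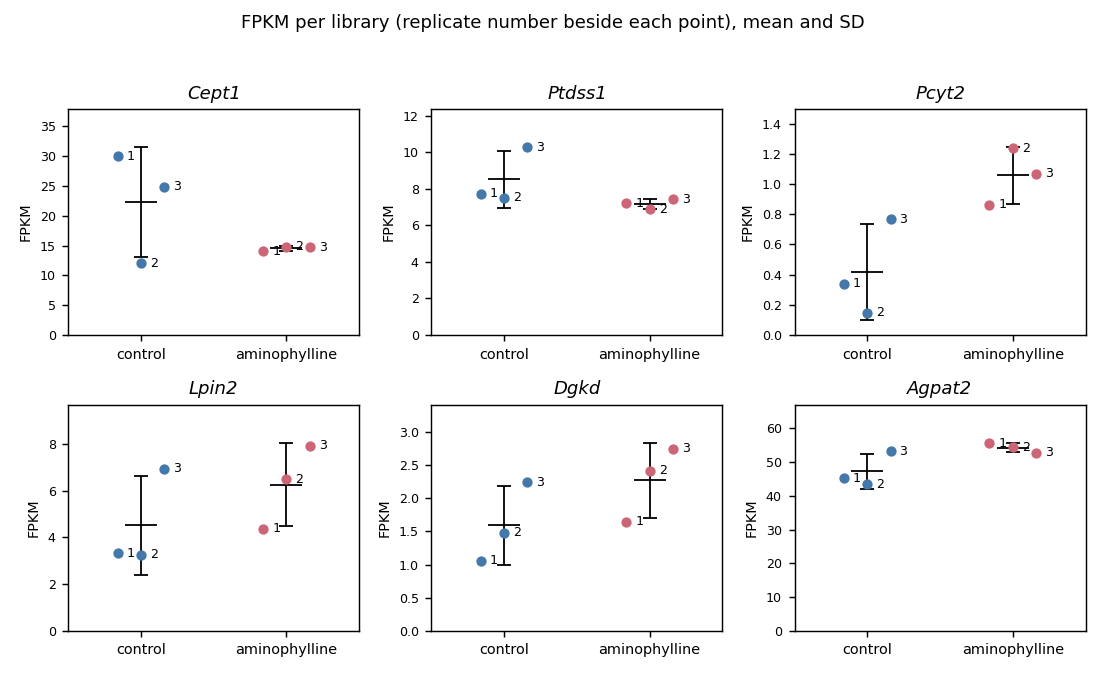
FPKM of Cept1, Ptdss1, Pcyt2, Lpin2, Dgkd and Agpat2 in each control (blue) and aminophylline (red) library, with group means and SD (n = 3 each), each panel on its own axis from 0. The 3 treated values of Cept1 lie together at 14.1 to 14.8 FPKM between control values of 12.1 and 30.

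The CTP-using enzymes that make the CDP forms sat below Cept1. Pcyt1a, the main enzyme for CDP-choline, measured 11.4, 8.42 and 13.8 FPKM in controls and 8.89, 11.7 and 12.1 after treatment, a log2 fold change of -0.02 ± 0.229 (SE). Pcyt1b measured 2.34 to 3.77 against 3.11 to 3.93 FPKM, and Etnk1, an ethanolamine kinase, 0.607 to 1.62 against 0.698 to 1.44, both with overlapping groups. The choline kinase Chka stayed at 0.288 to 0.45 FPKM in all 6 libraries and Chkb had at most 1 read in any.

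Pcyt2, the enzyme that makes CDP-ethanolamine, was too low to test, with an FPKM of at least 1 in 2 libraries, and is named here after its values were seen. It measured 0.34, 0.147 and 0.767 FPKM in controls and 0.864, 1.24 and 1.07 in treated oocytes, from 22, 4 and 47 reads against 47, 59 and 63. The groups did not overlap. In the limma fit without a filter its log2 fold change was 0.56, with an unadjusted p of 0.0313 and an adjusted p of 0.836. In that fit 3 of the 61 members were higher at an unadjusted p under 0.05, Pcyt2, Dgkb and Pla2g2d, beside 3.58% of the 25631 genes, and 0 were lower, beside 1.9%. Dgkb had 10, 7 and 6 reads in controls and 19, 24 and 25 after treatment, and Pla2g2d had 0, 0 and 1 against 2, 5 and 4. In the last of these each library is near the floor of 3 reads.

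Head groups are exchanged or altered by 4 enzymes, all tested. Pemt, which methylates phosphatidylethanolamine to phosphatidylcholine and is best known from liver, measured 11.6, 12.9 and 11.1 FPKM in controls and 15.6, 13.5 and 10.7 after aminophylline. The treated library 3 was the lowest of all 6, and the log2 fold change was 0.14 ± 0.204 (SE). Pisd, the mitochondrial phosphatidylserine decarboxylase, measured 8.58, 11.3 and 12.2 against 11.3, 11.7 and 9.05 FPKM, with means of 10.7 FPKM in both groups.

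Ptdss1, the phosphatidylserine synthase that starts from phosphatidylcholine, was the tested member whose groups did not overlap. It measured 7.73, 7.53 and 10.3 FPKM in controls and 7.22, 6.9 and 7.44 after treatment. The gap between the groups, from 7.44 to 7.53 FPKM, was small beside the control SD of 1.57. Its log2 fold change was -0.21 ± 0.208 (SE), with an interval of -0.67 to 0.25 and an adjusted p of 0.789, and it was -0.08 without control 3. Ptdss1 lies on the plus strand at chr13:66932830-66998401 and overlaps Mterf3 by 254 bases at its start. At its other end it overlaps the long noncoding RNA 4933433G19Rik, at a mean of 1.46 FPKM, by 1584 bases. Mterf3, a mitochondrial gene regulator and no member, measured 5.46, 5.29 and 7.65 FPKM in controls and 3.87, 3.87 and 3.92 after treatment, a log2 fold change of -0.53 with an unadjusted p of 0.0331 and an adjusted p of 0.682 in limma. Ptdss2, which starts from phosphatidylethanolamine, measured 5, 6.47 and 6.57 against 4.24, 7.39 and 4.64 FPKM.

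Reacylation is carried out by lysophospholipid acyltransferases, 5 of 9 tested. Lpcat1 measured 25.2, 31 and 50.8 FPKM in controls and 30.1, 39.9 and 35.5 after treatment. Control 3 alone was above all others, the means were 35.7 ± 13.4 and 35.2 ± 4.9 (SD, n = 3 each), and the log2 fold change was 0.03 ± 0.245 (SE). Lpcat2 measured 22.3, 15 and 14.4 against 19.2, 16.7 and 18.6 FPKM. Its highest value was in control 1, the library with macrophage markers, and its log2 fold change of 0.10 became 0.29 without it, with a p of 0.158 in limma. Lpcat4 measured 6.97, 5.1 and 12.9 against 7.62, 10.5 and 11.3 FPKM, a log2 fold change of 0.29 with an adjusted p of 0.799. Mboat2 and Mboat7, of the membrane-bound family, had log2 fold changes of -0.13 and 0.14. Mboat4, which acylates the hormone ghrelin rather than a lysophospholipid, reached at most 0.0918 FPKM.

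Phospholipases A2 were the largest step, with 9 of 15 tested. Their summed FPKM was 88.6, 77.7 and 120 in controls and 90, 93.1 and 120 after treatment, a ratio of 1.06. Pla2g4c, a cytosolic enzyme that works without calcium, measured 48, 27 and 70 FPKM in controls and 39.4, 52.4 and 66.1 in treated oocytes. Its control values differed 2.59-fold among themselves, and its log2 fold change was 0.19 ± 0.307 (SE) with an interval of -0.49 to 0.87. Without control 2 it was -0.17 and without control 3 0.50, neither with an unadjusted p under 0.05.

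Pla2g12a measured 25.9, 34.3 and 30.7 FPKM in controls and 32.8, 20.9 and 30.9 after aminophylline, with treated library 2 the lowest of all 6 and a log2 fold change of -0.12 ± 0.21 (SE). Its catalytically inactive relative Pla2g12b measured 5.25, 5.08 and 4.84 against 7.15, 5.17 and 7.1 FPKM. Here the controls lay close together, at 5.06 ± 0.203 against 6.47 ± 1.13 (SD, n = 3 each), and treated library 2 fell inside their range, with a log2 fold change of 0.29 and an adjusted p of 0.74. Pla2g4d, Pla2g4e and Pla2g4f are neighbours on chr2, at chr2:120265866-120289069, chr2:120166412-120245630 and chr2:120299952-120314165, and all were tested, with log2 fold changes of 0.24, 0.10 and 0.26. Pla2g4a, the arachidonate-releasing enzyme of many tissues, reached at most 0.273 FPKM. Of the remaining tested enzymes the lysosomal Pla2g15 had a log2 fold change of 0.28, Pla2g6 of 0.26 and Pla2g10 of -0.25. Pla2g6, at a mean of 1.58 FPKM, is overlapped over 2540 bases by the long noncoding RNA Gm41358 at 20.2 FPKM, and their reads cannot be told apart where strand was not used.

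Control 3 held the highest value of 13 of the 32 tested members, a larger share than its 24.4% of all tested genes. Control 1 held the lowest value of 12 members, also a larger share than its 27.2% of all genes. Control 2 held the lowest of 9 members and of 29% of all genes. The differences in these shares were not tested. The spread was wider among controls. The median SD of the members on the log2 scale was 0.295 in controls and 0.202 after treatment, beside 0.3 and 0.193 over all tested genes, and it was larger in controls for 25 of the 32 members (78.1%) and for 74.7% of all genes.

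The rest of the pathway, 56 listed genes for glycerol-3-phosphate and acyl supply, phosphatidylinositol and cardiolipin, ether lipids, triacylglycerol and other phospholipases, had 44 tested. Of these 1 was higher at an unadjusted p under 0.05, beside 4.41% of all tested genes, and 0 were lower, beside 2.84%. None of the 44 passed adjustment. Their median log2 fold change was 0.05, with 28 above 0 (63.6%) and 16 below, beside 64.8% above 0 over all tested genes. Pgs1, the phosphatidylglycerophosphate synthase that commits CDP-diacylglycerol to cardiolipin, was the gene that was higher. It measured 30.5, 44.2 and 62.7 FPKM in controls and 61.4, 58.7 and 77.6 after treatment. Control 3 lay within the treated range, and the log2 fold change was 0.56 ± 0.243 (SE), with an unadjusted p of 0.0409 and an adjusted p of 0.682 in limma. With the replicate block its unadjusted p was 0.00493 and its adjusted p 0.158, in a fit where 14.2% of all genes reached an unadjusted p under 0.05. Library weights gave an unadjusted p of 0.00826. Another pseudocount, the filter on mean level, quantile normalization and voom gave 0.0437 to 0.0472. The p was 0.0814 without a filter, 0.0793 at a common sum, 0.0534 with median centring and 0.151 in the unmoderated model. Leaving out a library gave 0.31 (p 0.183) without control 1, 0.57 (p 0.0662) without control 2 and 0.81 (p 0.00265, adjusted p 0.251) without control 3. The log2 fold change was 0.61 (p 0.0535), 0.64 (p 0.0521) and 0.44 (p 0.128) without aminophylline 1, 2 and 3. Among the most abundant of the others, Gdpd1, a lysophospholipase D, measured 218 ± 36.8 against 184 ± 8.25 FPKM and Plpp1, a lipid phosphate phosphatase, 141 ± 22.9 against 146 ± 23.9 FPKM (SD, n = 3 each), neither passing the test. In 2 of the 44 the groups were apart, both higher after treatment without passing the test, beside 7.51% of all tested genes. They were Pnpla6, a lysophospholipase, at 2.08, 1.98 and 2.33 against 2.53, 3.56 and 2.61 FPKM and Gde1, a glycerophosphodiesterase, at 43.9, 40.7 and 43.7 against 55.2, 47.5 and 44 FPKM.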

How the data were processed

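RNA from mouse oocytes was measured in 6 libraries, 3 per group, grouped by the labels. Total RNA was extracted with TRIzol and libraries were made with the VAHTS Universal V6 kit. The authors deposited FPKM values per gene, without counts. The submitters' processing notes name the build GRCm38 (mm10), and the aligner and counter are not given in the sources used here. Whole reads were recovered from the FPKM values: over 22583 genes, 100% of values came out whole within 0.001 reads, and 99.57% to 99.63% of each library's reads lay on listed genes. Floors cover counting error only.

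Members were chosen by gene symbol and coding type. Members and gene lists were chosen with earlier results of these data known. Genes that reached FPKM 1 in 3 or more libraries were tested with limma 3.58.1 in R 4.3.3, two-sided, with a mean-variance trend, on log2(FPKM + 1), with Benjamini-Hochberg adjustment over 10340 genes. The fits were tested on simulated data with 4-fold changes. In the main fit all 195 changed genes that were tested passed adjustment, and so did 14 unchanged ones. Smaller changes were not simulated. A fold change on this scale understates the change of low genes. Members were given library by library if their unadjusted p was under 0.05, if their groups did not overlap, or if they were the 2 most abundant of a step, and other pathway genes if their unadjusted p was under 0.05. Others named with values were chosen after their values were seen.

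Replicate numbers come from the labels, and no source says what they share. Deviations from the group means of same-numbered libraries correlated at 0.138, 0.14 and 0.552 over the tested genes. The main fit left the numbers out and compared the groups unpaired. A fit with the replicate number as a block was run as an alternative and is given where it changes a call. Control 2 correlated more with aminophylline 1, at 0.423. The alternatives were another pseudocount, other filters, 3 other scalings, an unmoderated model, library weights, the replicate block, limma-voom on the recovered reads and leaving out each library.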

Additional observations from a re-analysis of the deposited data

How the results depend on the processing

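No member passed an adjusted p of 0.05 under any alternative run. At an unadjusted p under 0.05, 3 members were higher without a filter and 4 with library weights (Dgkd, Lpin2, Pla2g15 and Pla2g6). Cept1 was the 1 member lower with median centring, with library weights and with the replicate block. Leaving out single libraries gave 0 to 3 members higher (3 without control 3, Dgkd, Lpcat4 and Lpin2) and 0 to 1 lower (Cept1, without control 2). Of the other pathway genes, 0 were higher after rescaling to a common sum, with median centring or in the unmoderated model, 7 with library weights, 2 with the replicate block, and 0 to 6 higher and 0 to 2 lower when single libraries were left out. With the replicate block 47 of all genes passed an adjusted p of 0.05, against 0 without it, and of the genes at an unadjusted p under 0.05, 1022 were higher and 445 lower. With library weights these were 1398 and 613, and without a filter 917 and 487. Leaving out single libraries gave from 203 higher and 126 lower (without aminophylline 2) to 1219 and 255 (without control 3), with 865 and 752 without control 2. The block changed no other call of a member named with values.

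Small log2 fold changes changed sign. With a common sum these were Agpat5 (-0.03), Pisd (-0.04) and Lpcat1 (-0.01). With quantile normalization they were Agpat5 (-0.08), Dgkk (-0.0047), Cds2 (-0.09), Pisd (-0.07) and Lpcat1 (-0.0037), and with median centring Agpat5 (-0.08), Cds2 (-0.05), Pisd (-0.08) and Lpcat1 (-0.05). Library weights gave Pcyt1a 0.01 and Lpcat2 -0.09, and voom gave Agpat5 -0.01. Over the libraries left out in turn, values crossed 0 for Gpat4 (-0.0099 to 0.39), Agpat5 (-0.08 to 0.11), Cds1 (-0.24 to 0.02), Cds2 (-0.05 to 0.14), Pcyt1a (-0.2 to 0.13), Pisd (-0.13 to 0.11), Lpcat1 (-0.18 to 0.31), Lpcat2 (-0.01 to 0.29), Pla2g12a (-0.23 to 0.08) and Pla2g4c (-0.17 to 0.5). The cause was not tested. With the longest GENCODE transcript as length, an alternative added after the data were seen, mean shares were 90.4% for Agpat2, 96.1% for Lpin2, 58.5% for Dgkd, 77.7% for Cept1, 41.4% for Pemt and 72.9% for Pla2g4c. Apart from these, 62 values of shares, ratios of sums, medians and counts stayed close to the main ones under the other alternatives. So did 134 when a library was left out, each value being 1 result under 1 alternative. Close meant a shift below the spread between libraries for shares and ratios. For the median it meant a shift below the median SE of the members, and for counts an equal count or at most 1.5 times. Ratios of sums near 1 crossed it, with 0.984 for the lysophospholipid acyltransferases at a common sum, and when libraries were left out with 0.931 to 1.39 for glycerol-3-phosphate acyltransferases, 0.96 to 1.21 for phospholipases A2, 0.948 to 1.19 for lysophospholipid acyltransferases, 0.842 to 1.02 for CDP-diacylglycerol synthases and 0.933 to 1.05 for the head-group enzymes.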
